A study of Mus musculus with 10 samples.

Results

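The genes of prostaglandin and leukotriene synthesis were compared between macrophages of lung metastases and macrophages of the normal lung. The 9 genes were listed by name, 4 for leukotrienes (Alox5, Alox5ap, Lta4h and Ltc4s) and 5 for prostanoids (Ptgs1, Ptgs2, Ptges, Hpgds and Tbxas1), and all 9 passed the filter on low values among 11571 genes tested. Metastasis-associated macrophages (MAMs, n = 5 libraries) were sorted as CD11B+, CD11C- cells from dissected metastases under 1 mm in diameter, pooled across mice (the labels and the study's methods differ on how many), after E0771-LG mouse mammary tumor cells had been injected into the tail vein of C57BL6/J females aged 6 to 8 weeks. Resident alveolar macrophages (RAMs, n = 5 libraries) were the CD11C+, CD11B- cells of normal lungs. Each gate also required CD45+, F4/80+, LY6C- and MRC1+ cells of high forward scatter, all mice were wild type and 8 to 10 weeks old, and transcription inhibitors were present during tissue digestion in both groups. The 2 groups thus differ in tumor, in gate and in tissue at once, and these cannot be told apart.

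Eicosanoids are short-lived lipid mediators made from arachidonic acid, which phospholipases release from membranes. Cyclooxygenases turn it into an unstable endoperoxide that terminal synthases convert to prostaglandin E2, prostaglandin D2, prostacyclin or thromboxane. In the other branch 5-lipoxygenase, presented with substrate by its activating protein, makes leukotriene A4, which is hydrolysed to the neutrophil attractant leukotriene B4 or joined to glutathione as leukotriene C4. Macrophages are known to hold both branches, and alveolar macrophages are a classical source of leukotrienes.

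In the GENCODE M21 annotation of GRCm38, the genes of the leukotriene branch were Alox5 at chr6:116410077-116461178, Alox5ap at chr5:149264767-149288153, Lta4h at chr10:93453411-93484875 and Ltc4s at chr11:50236461-50238616. Those of the prostanoid branch, beside Ptgs1, were Ptgs2 at chr1:150100031-150108227, Ptges at chr2:30889471-30929863, Hpgds at chr6:65117293-65144908 and Tbxas1 at chr6:38875404-39084585. Counts were made over the exons of each gene.

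Gene counts per library ran from 55391447 to 87523247 in MAMs and from 50746305 to 72150650 in RAMs. Levels are given as CPM, counts scaled to a common library size over the tested genes, with TMM factors, and expressed as counts per 1e6, and, where genes are set beside each other, as the authors' FPKM, which also divide by transcript length. The 6 macrophage markers summed to between 20454 and 27060 CPM in MAMs and between 27983 and 35362 CPM in RAMs. Most of each sum was Lyz2, whose mean was 20655 CPM for MAMs and 29172 CPM for RAMs. By the fitted fold of MAMs over RAMs, Lyz2 (0.708) and Mertk (0.336) were lower in MAMs. The markers Fcgr1 (10.2), Csf1r (4.04), Cd68 (1.79) and Adgre1 (1.29) were higher there, so the sum does not describe each marker. The alveolar marker Siglecf ranged from 304 to 385 CPM in RAMs and from 3.09 to 4.82 CPM in MAMs. Of 9 markers of mast cells and basophils, cells rich in eicosanoid enzymes, the summed level was at most 4.94 CPM in any MAM library and 1.32 in any RAM library, with Fcer1a and Mcpt4 at 0 counts in all 10 libraries. The 5 eosinophil markers summed to at most 5.54 CPM in MAMs and 0.960 in RAMs, with Prg2 and Prg3 at 0 counts in all 10 libraries.

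The cyclooxygenase genes and Hpgds rose in MAMs, Alox5 and Lta4h fell, and the other genes differed by less than 2-fold. A call required more than a 2-fold difference together with an adjusted p under 0.05. Of the 9 genes, 3 were called higher in MAMs, where 15.3% of all genes tested were, and 2 were called lower, where 15.1% were. An adjusted p under 0.05 was reached by 7 of 9 genes, against 56.2% of all tested. The libraries of one group lay wholly above those of the other for the same 7 genes, a separation seen in 44.9% of all genes tested. Ptgs2, counted among the 3 and among the 7, passed the filter through MAMs only. The median log2 fold change was 2.27 over the 5 prostanoid genes and -0.76 over the 4 leukotriene genes, and -0.02 over all genes tested. In bulk RNA of this kind, fewer cells that express a gene and less RNA per cell cannot be told apart.

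**Figure D1:**
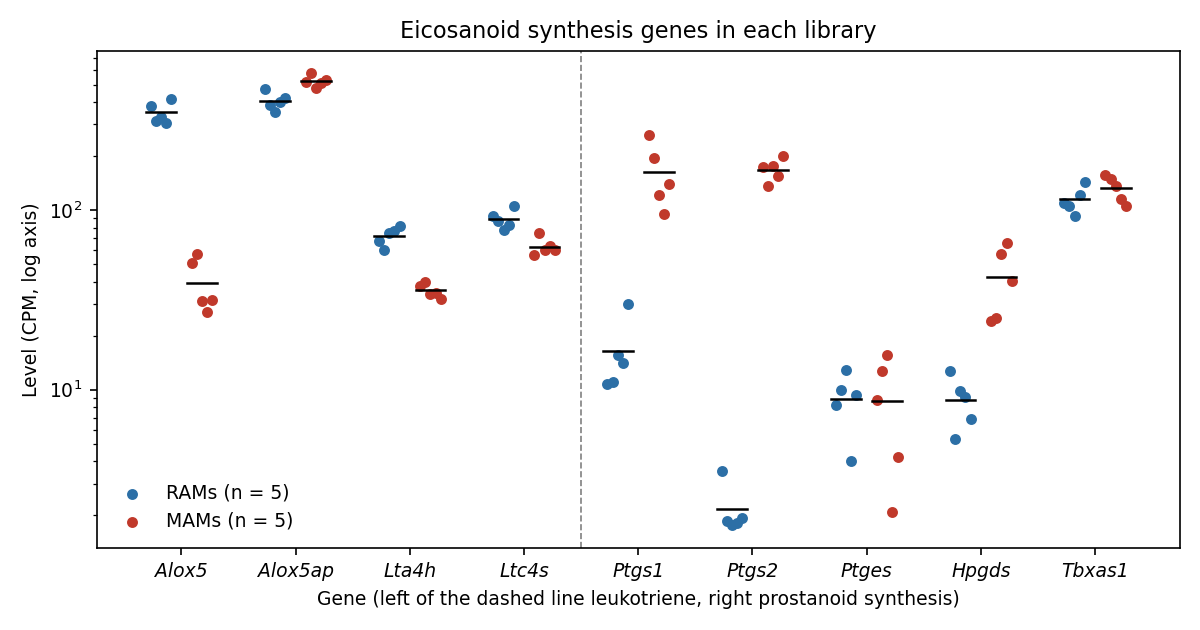
Level of each gene in CPM (log axis) in the 5 RAM libraries (blue) and the 5 MAM libraries (red), with horizontal lines at the group means. The groups are fully apart for 7 genes, while Ptges and Tbxas1 overlap. Ptgs2 lay between 136 and 201 CPM in MAMs and between 1.76 and 3.51 CPM in RAMs.

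The bases before the start of the 4 genes that changed most are printed next, so that the sequence beside these genes can be read with their values. Of the 9 genes, 8 had a window in the RefSeq promoter table for GRCm38.p6, from 250 bases before to 50 bases after the start, and the 250 bases before it are shown 5′ to 3′. Capitals mark matches, on either strand, to AGGAAGT (the core of PU.1-type ETS sites), TTGCGCAA (a C/EBP palindrome), ACGTCA (part of a cyclic AMP response element), CACGTG (an E-box), GAAANNGAA (the core of interferon response elements) and GGGCGG (a GC box).
Ptgs2, chr1:150099781-150100030, plus strand: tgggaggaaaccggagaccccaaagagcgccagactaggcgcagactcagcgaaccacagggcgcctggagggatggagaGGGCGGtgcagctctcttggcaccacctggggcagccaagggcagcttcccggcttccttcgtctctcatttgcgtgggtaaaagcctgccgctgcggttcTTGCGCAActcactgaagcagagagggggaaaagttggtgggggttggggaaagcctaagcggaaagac
Ptgs1, chr2:36230176-36230425, plus strand: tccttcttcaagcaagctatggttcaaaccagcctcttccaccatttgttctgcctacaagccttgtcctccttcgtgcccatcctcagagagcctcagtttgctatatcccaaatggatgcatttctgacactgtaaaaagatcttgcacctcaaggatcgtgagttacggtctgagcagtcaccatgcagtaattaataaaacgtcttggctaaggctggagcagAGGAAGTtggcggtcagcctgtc
Hpgds, chr6:65144731-65144980, minus strand: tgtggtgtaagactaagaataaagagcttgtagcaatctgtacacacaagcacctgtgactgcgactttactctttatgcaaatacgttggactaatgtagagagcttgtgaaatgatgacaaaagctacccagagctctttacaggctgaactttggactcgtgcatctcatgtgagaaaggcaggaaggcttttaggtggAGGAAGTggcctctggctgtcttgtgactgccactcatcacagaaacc
Alox5, chr6:116461179-116461428, minus strand: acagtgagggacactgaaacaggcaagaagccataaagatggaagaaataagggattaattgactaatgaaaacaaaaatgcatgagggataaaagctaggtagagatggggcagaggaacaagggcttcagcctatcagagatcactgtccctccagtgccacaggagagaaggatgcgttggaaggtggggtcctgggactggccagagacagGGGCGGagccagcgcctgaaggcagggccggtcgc
Over the whole windows AGGAAGT was found in 3 of the 8 (Ptgs1, Hpgds and Ltc4s), against 9.35% of all 32851 windows in the table. GGGCGG was found in 3 of the 8 (Ptgs2, Alox5 and Ptges), against 35.7% of all. TTGCGCAA stood in the Ptgs2 window, 69 bases before the start, and in 0.183% of all windows. In the 50 bases after the start of Ptgs2 an ACGTCA and a CACGTG overlapped, motifs held by 7.51% and 7.15% of all windows. GAAANNGAA was in 0 of the 8 and in 8.56% of all. The motifs were chosen with these sequences in view, so the matches only describe the letters.

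Ptgs2 encodes cyclooxygenase-2, the isoform that inflammatory signals induce. In MAMs it stood at 173, 136, 177, 154 and 201 CPM in replicates 1 to 5, and in RAMs at 3.51, 1.85, 1.76, 1.82 and 1.92 CPM. The 5 MAM libraries stayed close to each other, and no RAM library came near them. This was the widest difference among the 9 genes, at a log2 fold change of 6.27 (95% interval 5.82 to 6.72, adjusted p = 2.1e-12). The counts behind it were 7263 to 13987 per library in MAMs and 85 to 205 in RAMs. Ptgs2 passed the filter on low values through MAMs only (mean FPKM 25.2, against 0.335 in RAMs). The filter itself thus selected for a difference in this gene. Without a filter its log2 fold change was 6.29. As a share of all gene counts, the RAM level of Ptgs2 was 1.50% of the MAM level, and the lowest such share among 86 genes above 1000 CPM in MAMs was 1.06%. With 1% of the other group's level subtracted from each library, an alternative chosen after seeing the data, the log2 fold change was 7.84, whereas it was 4.28 with limma on log2(FPKM + 1). The size of the difference is therefore less certain than its direction.

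Ptgs1, on chromosome 2 of GRCm38 from 36230426 to 36252272, encodes cyclooxygenase-1, the form that many cells carry without stimulation. It was at 263, 196, 122, 95.8 and 140 CPM in MAM replicates 1 to 5 and at 10.8, 11.1, 15.7, 14.1 and 30.0 CPM in RAM replicates 1 to 5. The lowest MAM library lay above the highest RAM library, although the level varied 2.74-fold among MAMs and 2.77-fold among RAMs. The log2 fold change was 3.33 (95% interval 2.64 to 4.01, adjusted p = 3.5e-07), and 3.66 without RAM replicate 5, the highest library of its group. On the FPKM scale Ptgs1 still exceeded Ptgs2 in every library. Ptgs2 made up 21.8% to 40.6% of the summed FPKM of both genes in MAMs and 3.04% to 9.86% in RAMs, so the ranges did not overlap. That sum was 57.0 to 117 FPKM in MAMs and 4.29 to 11.2 FPKM in RAMs.

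Because Ptgs2 is also an early response gene that tissue handling can induce, 12 such genes were examined beside it. Of these, 3 were called higher in MAMs (Ier3, Hspa1a and Atf3, at log2 fold changes of 3.70, 3.43 and 1.38) and Fosb was called lower, at -2.29. An adjusted p under 0.05 with less than 2-fold was reached in the upward direction by Zfp36, Dusp1, Junb and Jun, at 0.84, 0.68, 0.89 and 0.42, and in the downward direction by Fos, Egr1 and Ier2, at -0.51, -0.97 and -0.75. In all, 7 of the 12 genes were higher and 4 lower at that threshold, and Nr4a1 did not reach it. Their median log2 fold change was 0.55, against -0.02 over all genes tested. Of all genes tested, 15.3% were called higher, 15.1% were called lower and 56.2% had an adjusted p under 0.05 in either direction. Summed over the 12 genes, the level was 3069 to 3616 CPM in MAMs and 2755 to 3100 CPM in RAMs. Their part in the level of Ptgs2 was not tested.

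Hpgds encodes the hematopoietic synthase of prostaglandin D2. Its level was 24.1, 25.2, 57.1, 65.3 and 40.5 CPM in MAM replicates 1 to 5, against 12.7, 5.35, 9.86, 9.12 and 6.91 CPM in RAM replicates 1 to 5. All MAM libraries exceeded all RAM libraries, replicates 1 and 2 by the smallest margin. The log2 fold change was 2.27 (95% interval 1.62 to 2.93, adjusted p = 1.3e-05). This gene is also known from other blood cell types, mast cells and megakaryocytes among them. Mast cell and basophil markers were at or near 0 in these libraries, while summed platelet and megakaryocyte markers were at 351 to 1048 CPM in MAMs against 13.8 to 18.3 in RAMs. The part of such cells in the level of Hpgds was not tested.

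Tbxas1 encodes thromboxane synthase. MAM replicates 1 to 5 held 157, 149, 137, 116 and 106 CPM and RAM replicates 1 to 5 held 110, 105, 92.8, 122 and 144 CPM. The groups overlapped, and the log2 fold change of 0.21 was short of the threshold (95% interval -0.06 to 0.49, adjusted p = 0.176). The interval lies inside a 2-fold change in either direction. Platelets also make thromboxane synthase, and 2 of 8 platelet and megakaryocyte markers, Pf4 and Ppbp, were called higher in MAMs, at 274 to 789 and 70.8 to 255 CPM. The other markers of that list were low, with Gp9 at no more than 2.85 CPM, Itga2b at no more than 4.74 and Gp1bb at no more than 0.0894 in any MAM library. Over the 8 markers the MAM libraries summed to between 351 and 1048 CPM and the RAM libraries to between 13.8 and 18.3.

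Ptges, the inducible synthase of prostaglandin E2, did not differ measurably. It was at 8.78, 12.7, 15.6, 2.08 and 4.22 CPM in MAM replicates 1 to 5, and at 8.22, 10.0, 12.9, 4.01 and 9.34 CPM in RAM replicates 1 to 5. Replicate 3 was highest and replicate 4 lowest in both groups. The log2 fold change was -0.04 with a wide interval, -1.02 to 0.95 (adjusted p = 0.955), so differences of up to 2-fold could not be seen at this spread. Of the 9 genes Ptges had the largest spread within groups, with a pooled SD of 0.954 in log2 CPM, above that of 92.1% of genes tested. The genes whose deviations from the group means were most like those of Ptges over the 10 libraries were Sept10, Ampd3 and Reep3, with Pearson r of 0.944, 0.929 and 0.918, a ranking over all genes tested and given without a p. The terminal prostanoid genes therefore ran from no measurable difference in Ptges and Tbxas1 to a rise in Hpgds. The ratio of Tbxas1 to Hpgds in FPKM was 2.93 to 12.9 in MAMs and 20.2 to 59.5 in RAMs.

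Alox5 encodes 5-lipoxygenase, the first enzyme of leukotriene synthesis. In MAM replicates 1 to 5 it was at 50.5, 57.1, 31.2, 27.0 and 31.8 CPM, and in RAM replicates 1 to 5 at 381, 313, 331, 307 and 418 CPM. RAM levels were even, and the nearest MAM library stood far below the lowest of them. Alox5 fell by 3.15 on the log2 scale (95% interval of the log2 fold change -3.57 to -2.73, adjusted p = 2.5e-09). As a share of all gene counts the MAM level was 9.69% of the RAM level, while the alveolar macrophage markers Siglecf, Plet1, Car4 and Krt79 were at 0.999%, 0.929%, 0.968% and 0.892% of theirs. The list of 9 such markers spans a wide range, and in fitted MAM over RAM folds Marco (0.630, not called), Fabp4 (0.347), Pparg (0.182) and Itgax (0.172) were above the 0.113 of Alox5, and Chil3 (0.0115) was below it. Itgax encodes CD11C, on which the 2 groups were sorted, so it is no independent marker here.

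Alox5ap, the 5-lipoxygenase-activating protein, did not follow Alox5. It was the most abundant of the 9 genes in both groups, at 517, 578, 479, 509 and 532 CPM in MAM replicates 1 to 5 and 473, 387, 353, 400 and 422 CPM in RAM replicates 1 to 5. The MAM libraries lay just above the RAM libraries, with a log2 fold change of 0.36 (95% interval 0.18 to 0.54, adjusted p = 0.00168). Under upper-quartile normalization, where the median of all genes moved to -0.18, it was 0.20 and no longer passed the threshold (adjusted p = 0.0514). The ratio of Alox5ap to Alox5 in FPKM was 3.62 to 4.59 in RAMs and 34.9 to 73.9 in MAMs.

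Lta4h, the hydrolase that makes leukotriene B4, was at 37.9, 39.9, 34.2, 34.6 and 32.1 CPM in MAM replicates 1 to 5 and at 67.6, 60.0, 75.0, 76.4 and 81.5 CPM in RAM replicates 1 to 5. No MAM library reached the level of any RAM library. The log2 fold change was -1.01 (95% interval -1.25 to -0.77, adjusted p = 1.5e-06), so the call as lower rests on a value at the 2-fold limit. It was at -0.97 without RAM replicate 5, and in 7 of 20 alternatives only Alox5 remained called lower, while Lta4h was under 2-fold or did not pass a test against it.

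Ltc4s, which joins leukotriene A4 to glutathione, was at 56.1, 74.2, 59.7, 63.4 and 60.2 CPM in MAM replicates 1 to 5 and at 92.9, 87.4, 77.7, 83.1 and 106 CPM in RAM replicates 1 to 5. The highest MAM library stopped just short of the lowest RAM library. Ltc4s fell by 0.51 on the log2 scale (95% interval of the log2 fold change -0.74 to -0.28, adjusted p = 8.5e-04). The ratio of Ltc4s to Lta4h in FPKM was 8.88 to 11.8 in MAMs and 5.84 to 7.62 in RAMs. Exons of Alox5ap, Ltc4s, Ptgs1 and Tbxas1 overlap other genes, not in the count table, on the opposite strand in the GENCODE annotation, and the counting is not stated to use strand, so reads of those genes could be included.

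**Figure D2:**
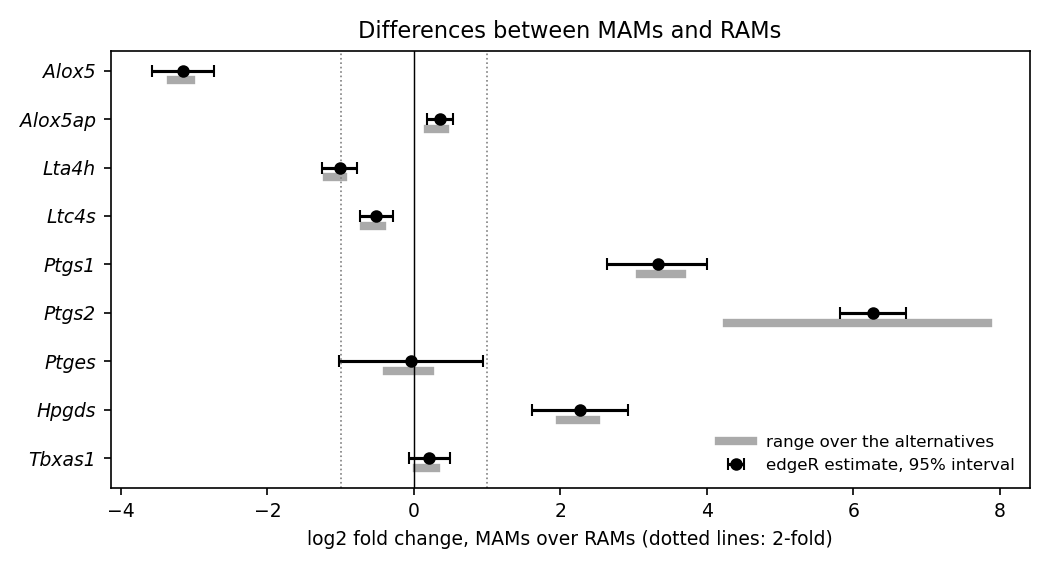
Log2 fold change of MAMs over RAMs for each gene, with the edgeR estimate and its 95% interval (black) and the range over the alternatives (grey); dotted lines mark 2-fold. Ptgs2, Ptgs1 and Hpgds lie beyond 2-fold above and Alox5 below, Lta4h sits at the limit with -1.01, and the intervals of Ptges and Tbxas1 span 0.

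On the FPKM scale, which allows genes to be ordered, the order in RAMs was Alox5ap (542 ± 53.1, SD, n = 5), Ltc4s (231 ± 27.8), Alox5 (130 ± 16.9), Tbxas1 (56.3 ± 8.95), Lta4h (33.6 ± 3.03), Ptgs1 (5.87 ± 2.88), Ptges (2.40 ± 0.920), Hpgds (1.73 ± 0.693) and Ptgs2 (0.335 ± 0.0519). Only Ptges and Hpgds were neighbours with overlapping libraries. In MAMs the order was Alox5ap (678 ± 49.6, SD, n = 5), Ltc4s (168 ± 17.6), Tbxas1 (60.0 ± 12.4), Ptgs1 (57.6 ± 23.1), Ptgs2 (25.2 ± 4.22), Lta4h (15.6 ± 1.27), Alox5 (14.3 ± 5.43), Hpgds (10.3 ± 4.63) and Ptges (2.38 ± 1.48). Here Tbxas1 overlapped Ptgs1, Lta4h overlapped Alox5 and Alox5 overlapped Hpgds. The top pair was the same in both groups, whereas Alox5 went from the third place to the seventh and Ptgs2 from the last to the fifth.

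The MAM libraries differed among themselves. Replicates 1 and 2 had the highest Ptgs1, Alox5 and Tbxas1 of the group and the lowest Hpgds. Replicate 4 had the lowest Ptgs1 and Alox5, at 58.6% and 68.3% of the group mean, and the highest Hpgds, at 154% of it. Alox5ap, Lta4h and Ltc4s were steadier, with at most 1.32-fold between the highest and lowest MAM library. Markers of several cell types moved with the same split. Summed alveolar markers were highest in replicates 1 and 2, at 800 and 651 CPM against 418 to 546 in the others, where RAMs had 10949 to 13702. Summed monocyte markers were also highest there, at 11209 and 9818 CPM against 4210 to 6621. The sums ran the other way for neutrophil markers, at 124 and 149 CPM against 218 to 312, and for platelet markers, at 351 and 523 CPM against 789 to 1048. Most of the neutrophil sum in MAMs was Csf3r and Mmp8, at means of 146 and 42.0 CPM, and RAMs held them at 68.4 and 58.5. S100a8, S100a9 and Ly6g averaged only 4.12, 3.88 and 0.368 CPM in MAMs. Endothelial markers summed to 21.7, 40.2, 58.9, 93.1 and 53.0 CPM in replicates 1 to 5, which is the order of Hpgds. Most of the alveolar sum in MAMs came from Marco (89.7 to 389 CPM) and from Itgax, the gene of the sorting marker CD11C (145 to 240 CPM). Car4 and Krt79 were at no more than 4.23 and 2.42 CPM. The part of these differences in the spread of the eicosanoid genes was not tested.

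**Figure D3:**
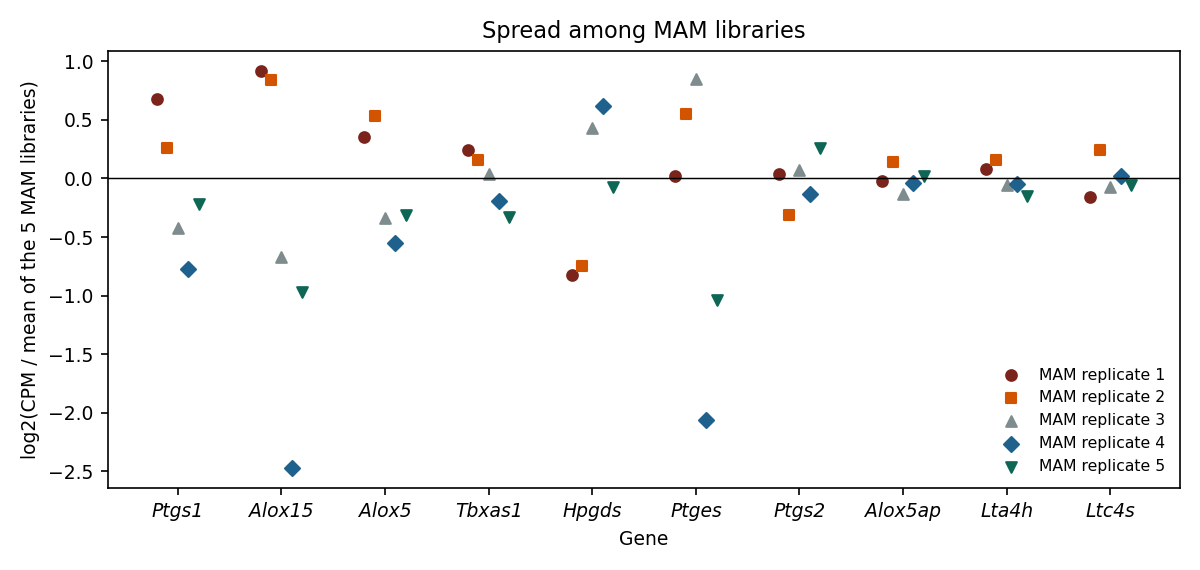
Level of the 9 genes and of Alox15 in each MAM library, as log2 of its CPM over the mean of the 5 MAM libraries. Replicates 1 and 2 are above the mean for Ptgs1, Alox15, Alox5 and Tbxas1 and below it for Hpgds, and replicate 4 is at the bottom for Alox15 and Ptges.

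The other genes of the pathway were taken from 7 lists written by function, 58 genes in all. Of these, 38 passed the filter on low values, 11 were called higher in MAMs and 11 lower, and 28 had an adjusted p under 0.05, where over all genes tested the shares were 15.3%, 15.1% and 56.2%. Their median log2 fold change was 0.05. Of the genes called higher, Alox15, Ptgis, Ltb4r1 and Cysltr2 passed the filter through MAMs only. Of those called lower, Mgll, Aloxe3, Mgst2 and Ggt5 passed it through RAMs only. The filter itself thus selected for a difference in these genes. Calls in both directions occurred in 4 of the 7 lists. An adjusted p under 0.05 was reached in both directions in every list, so the description goes step by step.

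Of 10 listed genes of arachidonate release 6 passed the filter, of which 3 were called lower and 0 higher. Over all genes tested, 15.1% were called lower and 15.3% higher. Pla2g4a, the cytosolic phospholipase A2 that serves both branches, was higher at 129 to 203 CPM in MAMs against 76.2 to 93.9 in RAMs, with no overlap but under 2-fold (log2 fold change 0.93, adjusted p = 2.6e-05). Mgll, which frees arachidonate from a monoacylglycerol, fell by 6.62 on the log2 scale, with 1.18 to 2.28 CPM in MAMs against 165 to 208 in RAMs. Its fitted MAM over RAM fold of 0.0102 was close to the 0.0115 of Chil3, which had the lowest MAM share among 65 genes above 1000 CPM in RAMs. Its log2 fold change ran from -11.84 with 1% of the other group subtracted to -5.31 with limma on log2(FPKM + 1). Pla2g15 and Pla2g6 fell by 2.00 and 1.41. Pla2g12a did not pass the threshold, and Pla2g4b had at most 16 counts in any library, although the deposited FPKM in RAMs were 1.43 to 2.25. Among genes that return arachidonate to membranes, Lpcat2, which also makes platelet-activating factor, rose by 3.93 and Acsl4 by 1.60 on the log2 scale, while Lpcat3 fell by 1.53 and Mboat7 by 0.45.

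Both other lipoxygenases that passed the filter did so through 1 group only. For Alox15 this was MAMs (mean FPKM 40.8, against 0.490 in RAMs), and for Aloxe3 it was RAMs (7.31, against 0.306 in MAMs). The filter itself thus selected for a difference in both. Alox15, the 12/15-lipoxygenase, was at 176, 167, 58.6, 16.9 and 47.7 CPM in MAM replicates 1 to 5 and at 0.704 to 1.18 CPM in RAMs. The difference reached 6.56 on the log2 scale (SE 0.593, adjusted p = 1.8e-07), and its RAM level was 1.24% of the MAM level as a share of gene counts, near the lowest share of abundant genes given above. Over the alternatives it ran from 4.38 to 8.77. In FPKM, Alox15 was 0.824 to 4.17 times the level of Alox5 in MAMs and 0.00282 to 0.00486 times in RAMs. Aloxe3, an epidermal lipoxygenase, was lower in MAMs, at a log2 fold change of -4.57, and averaged 18.1 CPM in RAMs. Alox12, Alox12b and Alox8 did not pass the filter.

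Of 7 listed genes that conjugate leukotrienes or trim the conjugate 5 passed the filter, of which 3 were called lower and 0 higher. Over all genes tested, 15.1% were called lower and 15.3% higher. Mgst3 and Mgst2, relatives of Ltc4s, fell by 3.19 and 2.82 on the log2 scale, from 43.5 to 4.77 and from 3.61 to 0.509 mean CPM. Ggt5, which converts leukotriene C4 to D4, was called lower at -1.32, although its groups overlapped and it did not pass the threshold without RAM replicate 3 (-1.14). Dpep2, the next enzyme of that chain, was higher at a log2 fold change of 1.00, and Dpep3 did not pass the threshold. Of the remaining prostanoid synthases, Ptgis, the prostacyclin synthase, was called higher at 6.46 (standard error 1.09), but its level was low and uneven, 0.380 to 9.86 CPM in MAMs. In RAMs Ptgis had at most 5 counts in a library. Its log2 fold change was 5.56 without MAM replicate 1 and 7.15 without RAM replicate 3, and ran from 1.34 with limma on log2(FPKM + 1) to 7.35 with 1% of the other group subtracted. Prxl2b, a prostaglandin F synthase whose exons overlap Mmel1, rose by 3.78 on the log2 scale (4.44 without RAM replicate 4), from a mean of 1.03 to 14.2 CPM. Ptges3 and Ptges2, the other prostaglandin E2 synthases, did not pass the threshold, though Ptges2 did so in 5 alternatives and Ptges3 in 3, and Cbr1 was lower by less than 2-fold at -0.60 (adjusted p = 0.0426), a difference that lost significance in 9 alternatives.

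Export and inactivation were led by Abcc1, the transporter of leukotriene C4, which rose by 2.37 on the log2 scale from 68.7 to 355 mean CPM. Ptgr1, a reductase that inactivates prostaglandins and leukotriene B4, rose by 1.97. Cyp4f16 fell by 1.55. Hpgd, the main dehydrogenase of prostaglandins, was at 3.04 mean CPM in MAMs and 3.44 in RAMs. Abcc4, Ptgr2, Cyp4f13 and Cyp4f18 did not pass the threshold either.

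Of 15 listed receptors 8 passed the filter, of which 4 were called higher and 2 lower. Over all genes tested, 15.3% were called higher and 15.1% lower. Both receptors of cysteinyl leukotrienes were called higher, Cysltr1 at 69.4 to 102 CPM in MAMs against 3.91 to 8.06 in RAMs (log2 fold change 3.84, adjusted p = 5.7e-10) and Cysltr2 at a log2 fold change of 4.33. Ltb4r1, the high-affinity receptor of leukotriene B4, ranged from 9.35 to 19.8 CPM in MAMs and from 0.0417 to 1.91 CPM in RAMs, a log2 fold change of 4.44 that was 5.39 without RAM replicate 2. Ptgir, the prostacyclin receptor, rose by 2.40. The receptors of prostaglandin E2 were lower in MAMs, Ptger4 at a log2 fold change of -1.26, Ptger2 at -0.99 and Ptger1 at -0.57, of which only Ptger4 passed the 2-fold limit. Fpr2, which binds lipoxin among other ligands, fell by 1.53. Exons of Ptger1, Ptger4, Fpr2, Lpcat3, Mboat7, Cyp4f18 and Pla2g4b overlap those of another counted gene, which leaves their values uncertain.

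**Figure D4:**
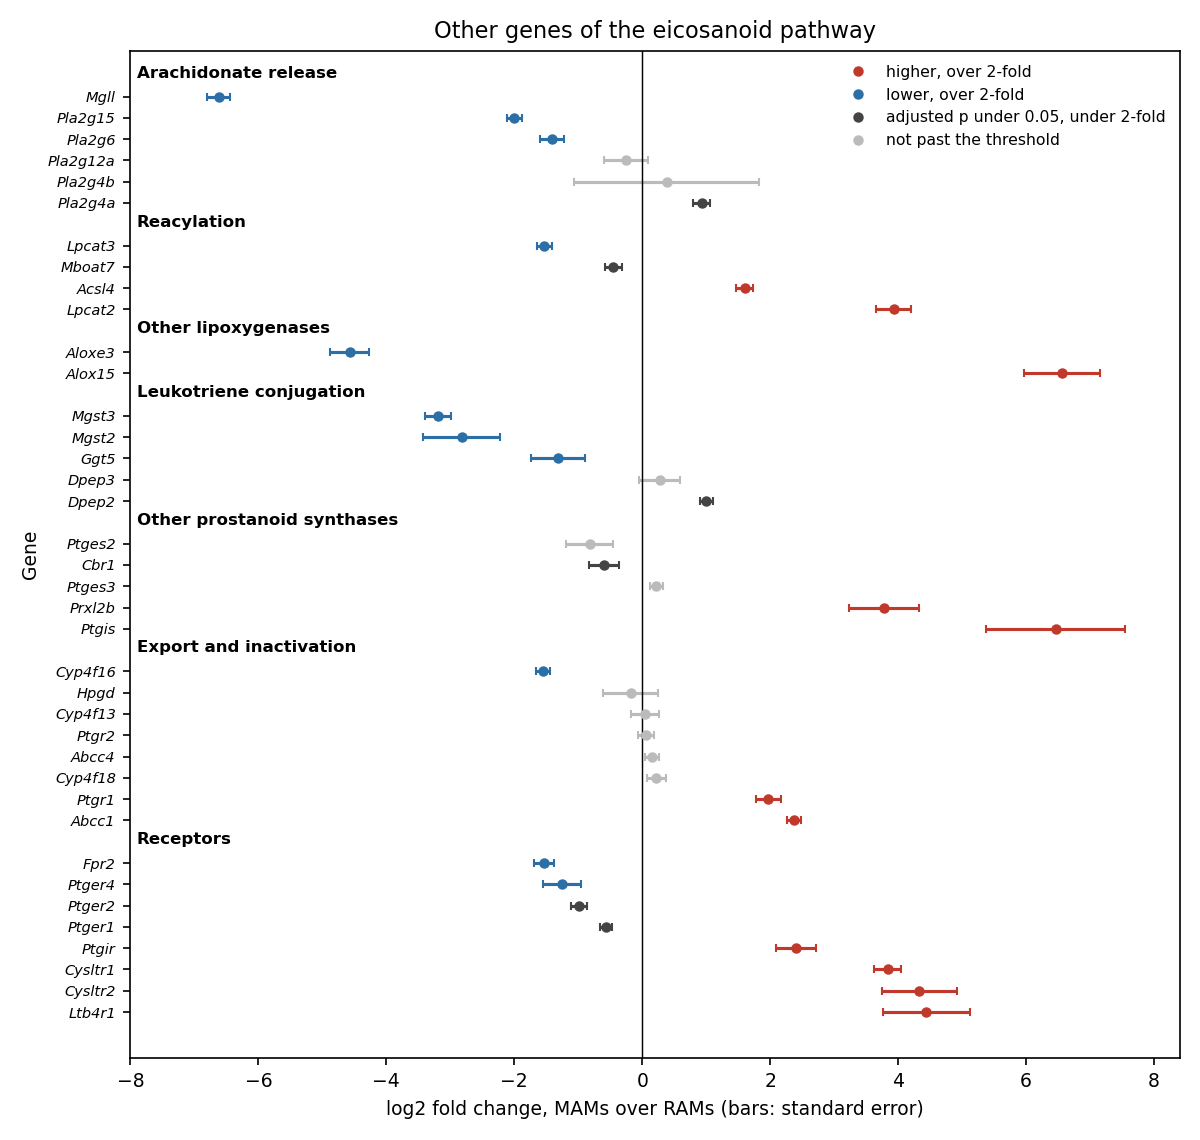
Log2 fold change of MAMs over RAMs, with standard errors, for the 38 tested genes of the 7 further lists, ordered within each list. Red marks calls over 2-fold higher and blue over 2-fold lower. Alox15 and Ptgis lie farthest to the right and Mgll farthest to the left, and receptors for leukotrienes and for prostaglandin E2 fall on opposite sides of 0.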

How the data were processed

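RNA-seq of 5 MAM and 5 RAM samples was analysed. The authors aligned reads to GRCm38 with TopHat (2.0.13), counted unique reads per gene with htseq-count (0.6.1) on RefGene models and deposited the raw counts. The deposited FPKM values came from Cufflinks (2.2.1). Rows without a gene name were not used, and their share of a library's total did not overlap between MAMs (54.6% to 58.3%) and RAMs (62.2% to 64.1%). According to the study's methods, a sample was either 1 mouse or lung metastases pooled across mice, so pooling is described for MAMs only. A pool averages over its mice, so the spread among MAM libraries and that among RAM libraries may not mean the same. The p-values measure the spread between these samples.

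Of 11622 genes whose FPKM averaged 1 or more in MAMs or in RAMs, the 11571 with any count were tested by edgeR's quasi-likelihood test (edgeR 4.0.16, R 4.3.3) with TMM scaling and Benjamini-Hochberg adjustment over all of them. Adjusted p-values in the report are from this fit, and intervals use its standard error. Alternatives were DESeq2 (1.42.0), RLE and upper-quartile scaling, filterByExpr, no filter, a replicate block, a test against a 2-fold change, limma (3.58.1) with pseudocounts of 1 and 0.1 on log2 FPKM, and each library left out. Subtracting 1% of the other group's level was chosen after seeing the data. The edgeR and DESeq2 fits were also run on simulated counts.

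The members and gene lists were chosen with earlier results of these data known. Named were all members, all called pathway genes, up to 3 abundant uncalled genes per list, the most abundant markers, and the genes nearest to the most variable member. Other marker genes, Hpgd, further uncalled genes of export and inactivation, and early genes beyond the rule were named after their values were seen. Over markers of other cells, sums in MAMs and RAMs reached 312 and 203 CPM for neutrophils (most abundant Csf3r and Mmp8), 13.9 and 26.0 for dendritic cells (Ccr7 and Clec9a), 24.6 and 727 for epithelium and tumor (Krt19 in both), 93.1 and 14.0 for endothelium (Kdr and Cdh5), 39.4 and 6.61 for stroma (Col1a1 and Dcn), 17.8 and 19.2 for lymphocytes (Cd79a in both), and 11209 and 11526 for monocytes (Fn1 and Chil3). Most of the epithelial sum in RAMs was Krt19, Cdh1 and Epcam, at means of 436, 131 and 76.8 CPM. In RAMs Krt8, Krt18 and Cldn4 averaged 0.0453, 0.119 and 0.0984 CPM, and Sftpc and Scgb1a1 averaged 14.4 and 10.4.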

Additional observations from a re-analysis of the deposited data

Results flagged for a closer look

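Levels in CPM of the 9 genes were searched for a library far from the other 4 of its group, over 18 groups of 5 libraries. Chance flags about 5% of such groups, and 2 were found, both in RAMs. Ptgs1 was at 30.0 CPM in RAM replicate 5, against 10.8 to 15.7 in the other RAM libraries, a gap of 0.749 of the group's range. Without that library the log2 fold change of Ptgs1 was 3.66. Ptgs2 was at 3.51 CPM in RAM replicate 1, against 1.76 to 1.92 in the others, a gap of 0.910 of the range. Both values lay below every MAM library. What set these libraries apart was not tested.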

How the results depend on the processing

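Over 19 alternatives each, the log2 fold changes of Ptgs1, Ptgs2, Hpgds, Alox5, Lta4h and Ltc4s kept their direction and stayed past the threshold on adjusted p, and that of Tbxas1 stayed short of it. Alox5ap lost significance under upper-quartile normalization (0.20), which lowered the median of all genes from -0.02 to -0.18. The direction of Ptges was not stable, with values from -0.36 to 0.22 when a library was left out, and above 0 without MAM replicate 4 or 5 or RAM replicate 2 or 3. The cause was not tested. The count of genes called higher was 3 in all 20 alternatives. The count called lower was 1 in place of 2 with filterByExpr, without a filter and in the test against a 2-fold change, and 1 to 2 with a library left out (1 without MAM replicate 3 or 5 or RAM replicate 4 or 5), since Lta4h sits at the 2-fold limit.

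The same alternatives were run for the further pathway genes after seeing the data, giving 11 to 13 called higher and 9 to 12 lower. Pla2g4b, at very low counts, was at 0.38 and turned to -0.65 with a replicate block, to -0.98 and -2.68 with limma at pseudocounts of 1 and 0.1, and ran from -2.91 (without MAM replicate 2) to 1.55 (without RAM replicate 1) with a library left out. Under upper-quartile normalization Ptgr2, Abcc4 and Cyp4f13 turned to -0.10, -0.02 and -0.12, and Cyp4f13 ran from -0.05 to 0.23 with a library left out. None of these 4 genes passed the threshold in the edgeR test, but both limma values of Pla2g4b did (adjusted p = 0.0067 and 0.0111), opposite in direction to the edgeR estimate. Same-numbered MAM and RAM libraries did not deviate together (r from -0.0366 to 0.0294), so the numbers were not taken as pairs, and with a replicate block the log2 fold change of Ptgs2 was 6.30 and that of Ptges -0.26. With the block, 3 genes were called higher and 2 lower, as without it, while Ggt5 and Cbr1 lost significance. Ptges2 gained significance in 5 alternatives and Ptges3 in 3. Few reads limit Ptgis in RAMs.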

Other observations

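Akr1b3, an aldose reductase that can make prostaglandin F2 alpha, had 0 counts in all 10 libraries, although the deposited FPKM averaged 1.96 in MAMs and 5.00 in RAMs, so no count test of it was possible. Ptgds, Ptgfr, Oxgr1, Alox12b and Alox8 had 0 counts in every library. Tbxa2r, the thromboxane receptor, was at or below 2 counts in every MAM library and reached 47 counts in a RAM library. Ltb4r2, the low-affinity receptor of leukotriene B4, averaged 0.161 CPM in MAMs and 1.11 in RAMs, opposite in order to Ltb4r1, and did not pass the filter, so the difference was not tested.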
